A study of Saccharomyces cerevisiae with 4 samples.

Results

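Among the genes on a cell wall microarray of Saccharomyces cerevisiae, 39 had a deposited log2 ratio below 0 on each of 4 arrays that set Congo Red-treated against untreated cells of a hog1 deletion strain. These genes were chosen by that ratio: the spots of a gene were averaged on each array, and a gene had to have a value below 0 on all 4 arrays. Of 353 named genes, 328 had a value on all 4 arrays, and 49 of these 328 (14.9%) were below 0 on every one, against 91 above 0 on every one. From the 49, 10 were set aside by name: FIT2, FIT3, TIR3, WSC4, GAS3, MID2, HSP26, YGP1, URA7 and DCG1. Because the ratios chose the 39 genes, their levels below are a description and are tested against nothing.

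The strain was BY4741 with HOG1 deleted. Hog1 is the terminal MAP kinase of high osmolarity signalling, and the deletion was present in the RNA of both channels. BY4741 also lacks functional HIS3, LEU2, MET17 and URA3. A culture in rich medium at 24 °C was divided, Congo Red was added to one part at 30 µg/ml, and both parts were collected at 4 h. On arrays 1 and 3 channel 2 held the treated RNA, while on arrays 2 and 4 channel 1 did. No strain with HOG1 was analysed here. The sources used here do not name the numerator. A ratio below 0 therefore means less transcript after Congo Red only if the treated RNA is the numerator and the values were already turned to one direction. If the numerator is the untreated RNA, every direction below is the opposite, and if the arrays were not turned, a shared sign is no difference of treatment. The mean Pearson correlation between arrays that differ in channel order was 0.15 over spots and 0.40 over the 328 genes. Arrays of the same order correlated at 0.77 (1 and 3) and 0.70 (2 and 4) over spots and at 0.70 and 0.77 over genes. ACT1, the actin gene, had a mean of 0.06 ± 0.13 (SD, n = 4). CWP1, a wall protein gene, had 2.69, 3.80, 3.17 and 3.62 on arrays 1 to 4, above 0 in both channel orders. Of 10 chitin genes with 4 values, 6 were above 0 on every array and 0 below. Of 14 β-1,3-glucan genes, 10 were above 0 on every array and 1 below. The numerator and the turning were not tested with these values. Markers of mating type were near 0 or of both signs (MFA1 -0.21 ± 0.33, SAG1 -0.005 ± 0.165), and a ratio cannot show whether such a gene was expressed. In total RNA of a whole culture, fewer cells with a transcript and less transcript per cell cannot be told apart.

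Congo Red is a dye that attaches to wall polysaccharides, chief among them chitin, and weakens the wall. Cells answer through the cell integrity MAP kinase pathway, which raises transcripts of wall proteins and of enzymes that build glucan and chitin. The wall families among the genes below 0 were largely set aside by name, and the 39 that remain were sorted by known role into ribosome assembly and translation, amino acid and sugar metabolism, folding and glycosylation in the secretory pathway, and signalling and repression. In growing yeast ribosome assembly is a large consumer of transcription and is commonly turned down under stress. The chip is a chosen set of mostly wall-related genes, so few genes of each of these other kinds were on it.

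The ratios of the 39 genes were small. The means over 4 arrays ran from -1.07 for HIT1 to -0.041 for SLN1, with a median of -0.30, beside a median of 0.01 over the 328 genes. A mean at least 1.5-fold below 0 was reached by 4 genes (HIT1, UTP5, GCV2 and ERO1), and 13 genes had a mean closer to 0 than -0.25. Their SD over the arrays had a median of 0.18. In the fit over 348 genes with at least 3 values, limma called 13 genes (3.74%) lower at an adjusted p under 0.05. All 13 were below 0 on all 4 arrays, and 9 of them are among the genes set aside by name. The other 4 are HIT1, ERO1, REE1 and YGR079W. Nothing is read from these calls, since the same ratios chose the genes.

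**Figure D1:**
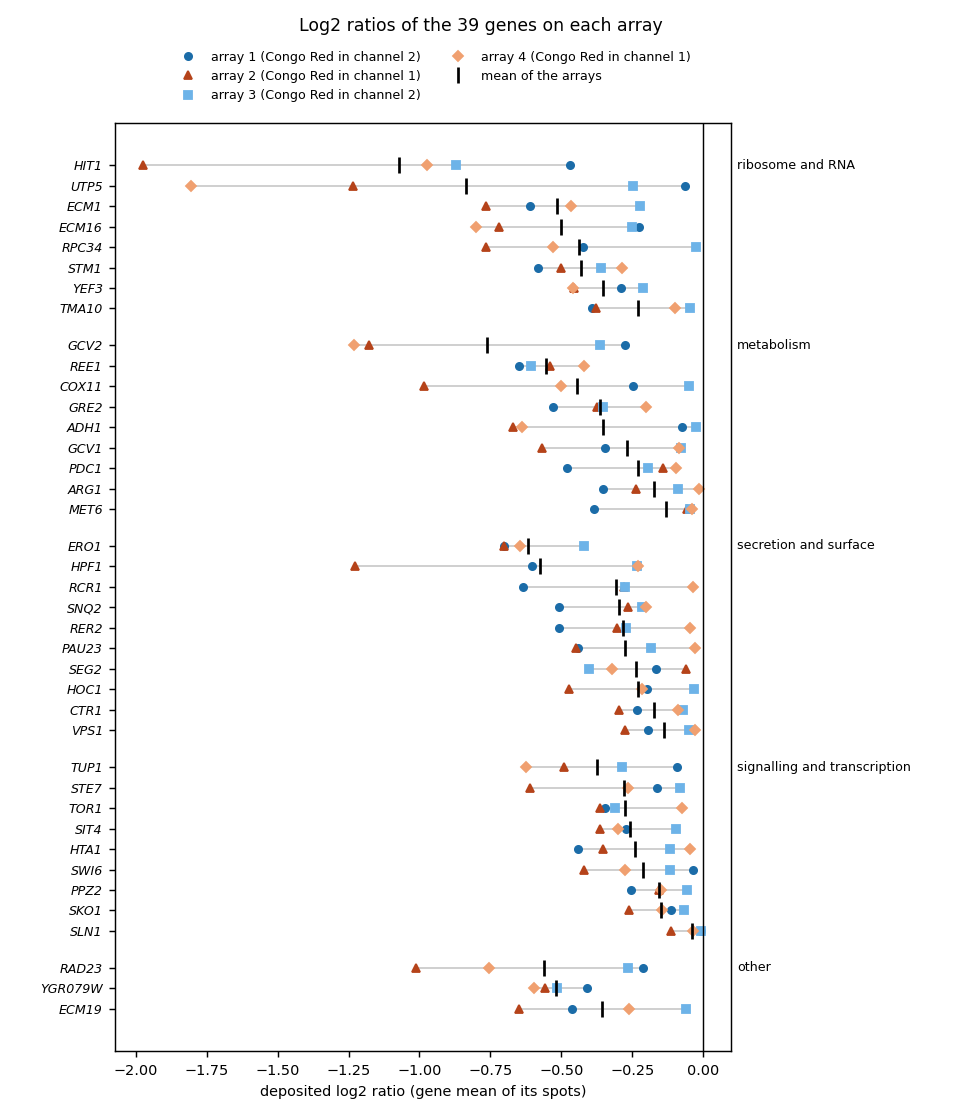
Deposited log2 ratio (horizontal axis) of each of the 39 genes (rows, grouped by role) on each of the 4 arrays (symbols), with the mean of the arrays as a black bar and a grey line for the range. All points lie left of 0 by the choice of the genes. HIT1, UTP5, GCV2 and HPF1 spread widely, while ERO1, REE1 and YGR079W have their 4 arrays close together.

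The 8 genes of ribosome assembly and translation had means from -1.07 to -0.23. HIT1 (YJR055W), which takes part in the assembly of box C/D small nucleolar ribonucleoproteins, measured -0.47, -1.97, -0.87 and -0.98 (log2 ratio, arrays 1 to 4 in this order here and below; mean -1.07 ± 0.64, SD, n = 4). Its spread rests on array 2, where its pair of spots read -2.72 and -1.22. UTP5 (YDR398W), a protein of the processome that matures the small ribosomal subunit, had ratios of -0.063, -1.23, -0.25 and -1.81 (mean -0.84 ± 0.83). Its arrays 2 and 4 were far below 0, and array 1 was close to it. ECM16 (YMR128W), an RNA helicase of the same processome, had -0.23, -0.72, -0.25 and -0.80 (mean -0.50 ± 0.30), with the same arrays low. ECM1 (YAL059W), needed for export of the large subunit, had -0.61, -0.77, -0.22 and -0.47 (mean -0.52 ± 0.23) and stood well below 0 on every array. RPC34 (YNR003C), a subunit of RNA polymerase III, had -0.43, -0.77, -0.024 and -0.53 (mean -0.44 ± 0.31), so that on array 3 it barely met the rule. The remaining 3 genes encode proteins that work on finished ribosomes. STM1 (YLR150W), a ribosome-bound protein, had -0.58, -0.50, -0.36 and -0.28 (mean -0.43 ± 0.13). YEF3 (YLR249W), translation elongation factor 3, had -0.29, -0.46, -0.21 and -0.46 (mean -0.35 ± 0.12). TMA10 (YLR327C), found associated with ribosomes, had -0.39, -0.38, -0.048 and -0.10 (mean -0.23 ± 0.18). STM1 and YEF3 were clear of 0 on every array, while TMA10 came near it on arrays 3 and 4.

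Other ribosome and RNA genes on the chip lay above 0 or had both signs. SSD1, an RNA-binding protein gene, and ECM32, a helicase gene, were above 0 on every array, ECM32 at 0.81, 1.10, 1.28 and 1.26. RRP14, a nucleolar protein of ribosome synthesis, had 0.22 and 0.30 on arrays 1 and 3 but -2.59 and -2.54 on arrays 2 and 4. HCA4, an RNA helicase of rRNA maturation, had 0.76 and 0.83 on arrays 1 and 3 and -2.44 on array 4, with no value on array 2. RRP14 passed for the limma channel order term (adjusted p = 0.00319), as did UTP5 among the 39 (adjusted p = 0.0408). With 1 array on one side, no order is read for HCA4. SKI6, a subunit of the exosome, and TFC1, a factor of RNA polymerase III genes, had means of -0.12 ± 0.28 and 0.04 ± 0.15. Partners here and below, 35 in all, were picked after the 39 were known and from outside them. Only a gene set aside by name could therefore be below 0 on all 4 arrays, and none of the 35 was. That absence follows from the picking and is no result. Of the 35, 4 were above 0 on every array (SSK22, CYC8, SWI4 and ARI1), and limma called 2 higher. SSD1, ECM32 and the TIR genes described below are not among the 35.

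Of the 9 metabolic genes, GCV2 (YMR189W) was the lowest. It encodes the P subunit of the glycine cleavage system of mitochondria, and had ratios of -0.27, -1.18, -0.36 and -1.23 (mean -0.76 ± 0.51). GCV1 (YDR019C), the T subunit of the same enzyme, had -0.35, -0.57, -0.076 and -0.085 (mean -0.27 ± 0.24). Both subunit genes were below 0 throughout, but on array 4 they lay far apart. REE1 (YJL217W), described as a regulator of enolase, had -0.65, -0.54, -0.61 and -0.42 (mean -0.55 ± 0.10), which makes it one of the steadiest of the 39. COX11 (YPL132W), which delivers copper to cytochrome c oxidase, had -0.25, -0.98, -0.051 and -0.50 (mean -0.45 ± 0.40). CTR1 (YPR124W), the copper transporter of the plasma membrane, had -0.23, -0.30, -0.072 and -0.090 (mean -0.17 ± 0.11). Both copper genes were nearest to 0 on array 3.

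Fermentation was represented by ADH1 and PDC1. ADH1 (YOL086C), the main alcohol dehydrogenase, had ratios of -0.075, -0.67, -0.026 and -0.64 (mean -0.35 ± 0.35), low on arrays 2 and 4 alone. PDC1 (YLR044C), the main pyruvate decarboxylase, had -0.48, -0.14, -0.20 and -0.095 (mean -0.23 ± 0.17), lowest on array 1. ARG1 (YOL058W), argininosuccinate synthetase, had -0.35, -0.24, -0.088 and -0.015 (mean -0.17 ± 0.15). MET6 (YER091C), methionine synthase, had -0.39, -0.055, -0.045 and -0.040 (mean -0.13 ± 0.17), so a single array carries its mean. MET5 of sulfite reduction and ARO10, a decarboxylase of amino acid breakdown, changed sign between arrays, with means of -0.05 ± 0.43 and -0.06 ± 0.23.

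The 10 genes of secretion and the cell surface had means from -0.62 to -0.14. ERO1 (YML130C), the oxidase that supplies disulfide bonds in the endoplasmic reticulum, had -0.70, -0.70, -0.42 and -0.65 (mean -0.62 ± 0.13), 1.53-fold below 0 with its arrays close together. RCR1 (YBR005W), an endoplasmic reticulum membrane protein named for the resistance to Congo Red that its excess gives, had -0.63, -0.28, -0.27 and -0.035 (mean -0.31 ± 0.25). Its second spot on array 4 was above 0, at 0.14. RER2 (YBR002C), the cis-prenyltransferase of dolichol synthesis, had -0.51, -0.30, -0.27 and -0.045 (mean -0.28 ± 0.19). RCR1 and RER2 have only 2 genes between them in R64 gene order, and both ranked the arrays alike, array 1 lowest and array 4 nearest to 0. That ranking is not particular to them: STM1, GRE2, SNQ2, HTA1, ARG1 and MET6 had it too. REE1 and PDC1 were also lowest on array 1 and nearest to 0 on array 4, with arrays 2 and 3 exchanged. GRE2 and HPF1 likewise have 2 genes between them, but GRE2 was lowest on array 1 and HPF1 on array 2. Details of the probes of these neighbours are not known here.

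HPF1 (YOL155C), a wall mannoprotein, had ratios of -0.60, -1.23, -0.23 and -0.23 (mean -0.57 ± 0.47). On array 2 its spots read -0.037 and -2.42, so its low value there rests on 1 spot. PAU23 (YLR037C), a seripauperin of a family of near-identical genes, had -0.44, -0.45, -0.18 and -0.030 (mean -0.28 ± 0.21). Of related genes on the chip, PAU24 had a mean of 0.06 ± 0.28 and DAN1 of 0.68 ± 0.67, neither past the limma threshold and each with both signs. DAN4 also had both signs (0.11 ± 1.07). The related TIR genes, set aside by name, differed among themselves. TIR3 was below 0 on every array (mean -0.89 ± 0.44), TIR2 and TIR4 were above 0 on every array, and TIR1 had both signs. HOC1 (YJR075W), a mannosyltransferase subunit of the Golgi, had -0.20, -0.47, -0.031 and -0.21 (mean -0.23 ± 0.18), and its complex partner MNN9 had -0.27 ± 0.66 with both signs. SRT1, the alternative cis-prenyltransferase beside RER2, had -0.29 ± 0.47, also with both signs. VPS1 (YKR001C), a dynamin-like GTPase of vacuolar sorting, had -0.19, -0.28, -0.050 and -0.030 (mean -0.14 ± 0.12). SEG2 (YKL105C), of the eisosomes that shape plasma membrane furrows, had -0.16, -0.059, -0.40 and -0.32 (mean -0.24 ± 0.15) and was lowest on array 3, unlike every other of the 39. SNQ2 (YDR011W), a drug efflux transporter, had -0.51, -0.27, -0.22 and -0.20 (mean -0.30 ± 0.14). CTR1, described with COX11, completes the group. Probes of the PAU family, and those of paralogues such as PDC1, ADH1, PPZ2 and HTA1, may not separate family members, and their specificity is not given here.

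**Figure D2:**
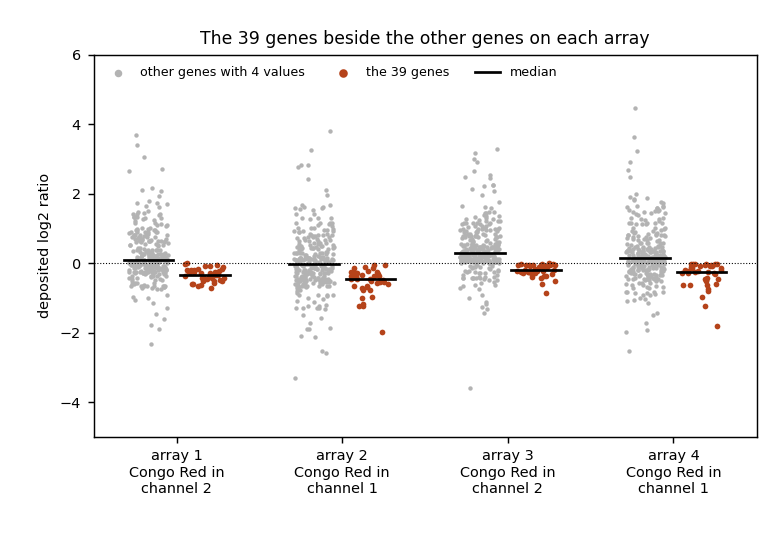
Deposited log2 ratio (vertical axis) of the 39 genes (red) and of the other genes with 4 values (grey) on each array, 1 point a gene, with a black line at each median. The medians of the 39 genes are -0.35, -0.46, -0.20 and -0.26 on arrays 1 to 4, and those of the other genes 0.10, -0.03, 0.30 and 0.16. On array 3 the other genes sit highest and the 39 crowd nearest to 0.

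The 9 genes of signalling and transcription were the closest to 0, with means from -0.37 to -0.041. TUP1 (YCR084C), the general corepressor, had -0.090, -0.49, -0.29 and -0.62 (mean -0.37 ± 0.23). SKO1 (YNL167C), the repressor that Hog1 phosphorylates and that recruits Tup1 with Cyc8, had -0.11, -0.26, -0.068 and -0.14 (mean -0.15 ± 0.08). GRE2 (YOL151W), a methylglyoxal reductase gene known as a target of Sko1, had -0.53, -0.37, -0.35 and -0.20 (mean -0.36 ± 0.13). GRE2 belongs to the metabolic genes above. All 3 met the rule, SKO1 with the smallest distance from 0. CYC8 was above 0 on each array, with a mean of 0.41 ± 0.37 that did not pass (limma adjusted p = 0.183). ARI1, a reductase gene related to GRE2, also stood above 0 on each array (0.47 ± 0.28, limma adjusted p = 0.0874). HAL1, a salt tolerance gene, had both signs, with a mean of -0.06 ± 0.16.

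SLN1 (YIL147C), the histidine kinase that senses osmolarity at the membrane, met the rule by the smallest margin. It had -0.0072, -0.12, -0.0066 and -0.035 (mean -0.041 ± 0.051). Of its pair of spots, 1 was above 0 on arrays 1, 3 and 4, at 0.033, 0.033 and 0.02. Of the relay that follows it, YPD1 (0.16 ± 0.51), SSK1 (0.10 ± 0.19), SSK2 (-0.19 ± 0.39) and PBS2 (-0.16 ± 0.43) had both signs and did not pass. SSK22 alone of that relay passed in limma, above 0 on each array (mean 1.24 ± 0.14, adjusted p = 0.00333). HOG1, deleted in both channels, had 1.43, -1.73, -0.23 and 1.25. Where its probe lies relative to the deletion is unknown here, so this checks nothing. MET17, also deleted in both, had 3.05, -0.51, 2.92 and 0.16, high on arrays 1 and 3. It passed for the limma channel order term (adjusted p = 0.00336). The position of its probe is unknown too.

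Among the other kinase and phosphatase genes, TOR1 (YJR066W) had -0.35, -0.36, -0.31 and -0.075 (mean -0.27 ± 0.13). It encodes the kinase that couples growth to nutrients, and SIT4 (YDL047W) a phosphatase that acts in its pathway. SIT4 had -0.27, -0.36, -0.095 and -0.30 (mean -0.26 ± 0.11). Both genes kept similar distances from 0 apart from 1 array each. PPZ2 (YDR436W), a phosphatase of salt tolerance and cell integrity, had -0.26, -0.16, -0.057 and -0.15 (mean -0.15 ± 0.08), whereas its paralogue PPZ1 had both signs (0.008 ± 0.250). STE7 (YDL159W), the MAP kinase kinase of mating and filamentous growth, had -0.16, -0.61, -0.083 and -0.26 (mean -0.28 ± 0.23). Its cascade partners STE20, STE50, STE11, KSS1 and STE12 had both signs, with means from -0.18 to 0.36. SWI6 (YLR182W), the partner of Swi4 and Mbp1 in G1 transcription factors, had -0.036, -0.42, -0.12 and -0.28 (mean -0.21 ± 0.17). SWI4 itself was above 0 on each array and passed in limma (0.49, 0.48, 0.61 and 0.49; mean 0.52 ± 0.06, adjusted p = 0.0231). HTA1 (YDR225W), a histone H2A gene, had -0.44, -0.35, -0.12 and -0.045 (mean -0.24 ± 0.19).

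**Figure D3:**
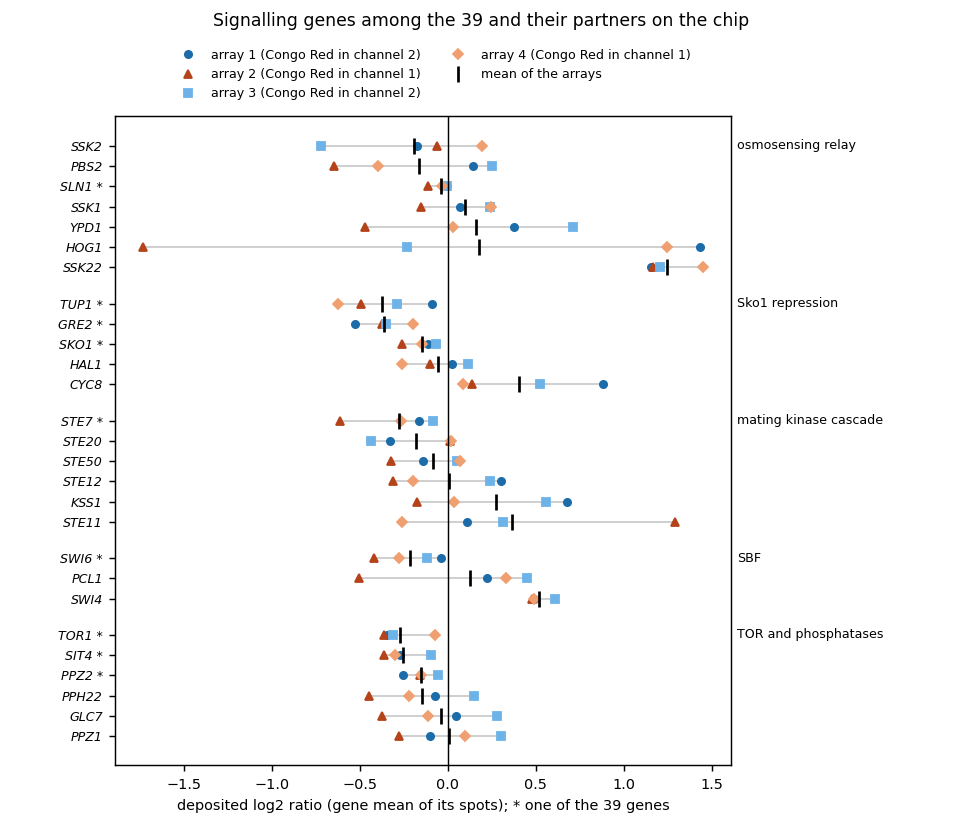
Deposited log2 ratio (horizontal axis) on each array (symbols) of signalling and repression genes among the 39 (asterisk) and of their partners on the chip, with the mean as a black bar. SSK22, CYC8 and SWI4 lie right of 0 on every array; the other partners cross 0.

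RAD23 (YEL037C), ECM19 (YLR390W) and YGR079W fit none of these kinds. RAD23, which brings damaged DNA and ubiquitinated proteins to their machinery, had -0.21, -1.01, -0.26 and -0.75 (mean -0.56 ± 0.39), low on arrays 2 and 4. YGR079W, of unknown function, had -0.41, -0.56, -0.52 and -0.60 (mean -0.52 ± 0.08). ECM19, also of unknown function, had -0.46, -0.65, -0.060 and -0.26 (mean -0.36 ± 0.25). YGR079W had the smallest SD of the 12 genes with the lowest means.

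How close to 0 a gene came differed by array. Array 3 had the highest median over spots, 0.22, against 0.0073, -0.13 and 0.07 on arrays 1, 2 and 4, and 27.4% of the 328 genes were below 0 on it, against 43.9% to 56.4% on the others. Of the 39 genes, 16 were nearest to 0 on array 3 and 14 on array 4, while 19 had their lowest value on array 2. Another 33 genes of the 328 were below 0 on arrays 1, 2 and 4 and failed on array 3 alone, against 4, 4 and 11 that failed on array 1, 2 or 4 alone. The limit itself passes between like genes. Just inside it were SLN1, ARG1 and RPC34. Just outside were TPI1, triose phosphate isomerase (-0.67, -0.47, -0.39 and 0), the wall glucosidase-like gene SUN4 (-0.44, -0.18, -0.24 and 0), and YDR261W-B, a retrotransposon reading frame (-0.11, -0.24, 0.01 and -0.16). With the arrays centred on their median spot, 36 of the 39 stayed below 0 on every array and 36 further genes joined them. The medians of arrays 1, 3 and 4 were above 0, so centring lowered every value there. Only array 2 could lose a gene, and the number that stayed follows largely from the rule. The 3 that left were SEG2, MET6 and SLN1. After this centring, 27 of the 39 were below 0 on every array and also had every single deposited spot below 0. A limit of -0.1 in place of 0 left 13 genes, all of them among these 27: HIT1, GCV2, ERO1, HPF1, RAD23, REE1, YGR079W, ECM1, ECM16, STM1, GRE2, YEF3 and SNQ2.

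Ratios lower on arrays 2 and 4 were about as frequent among the 39 genes as over the whole chip. A full separation in the other direction was rarer among the 39. The rule leaves out genes whose sign changes between the orders, so these shares depend partly on the choice. The median difference between arrays 1 and 3 and arrays 2 and 4 was 0.11 in the 39 and 0.11 in the 328. In 25 of the 39 genes the mean was lower on arrays 2 and 4 than on arrays 1 and 3, as in 191 of the 328. In 17 of the 39, and in 124 of the 328, both arrays 2 and 4 lay below both arrays 1 and 3, and in 2 of the 39, and 59 of the 328, the reverse held. UTP5 had a mean of -0.15 on arrays 1 and 3 and of -1.52 on arrays 2 and 4, GCV2 of -0.32 and -1.20, and ADH1 of -0.050 and -0.66. ERO1, with -0.56 and -0.67, and REE1, with -0.63 and -0.48, differed little between the orders. By role, 7 of 8 ribosome and RNA genes were lower on arrays 2 and 4, as were 4 of 9 metabolic genes, 5 of 10 of secretion and surface, 6 of 9 of signalling and the 3 others. Differences between the roles were not tested. The limma term for channel order passed at an adjusted p under 0.05 with a value above 0 in 17 of 348 genes (4.89%) and in 1 of the 39, UTP5. The part of channel order in the ratios of the other 38 was not tested apart from that term. Over the 39 genes, arrays 2 and 4 correlated at 0.73 and arrays 1 and 3 at 0.43, and arrays of opposite order between -0.20 and 0.48 (Pearson, across genes that share arrays and were cut at 0).

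**Figure D4:**
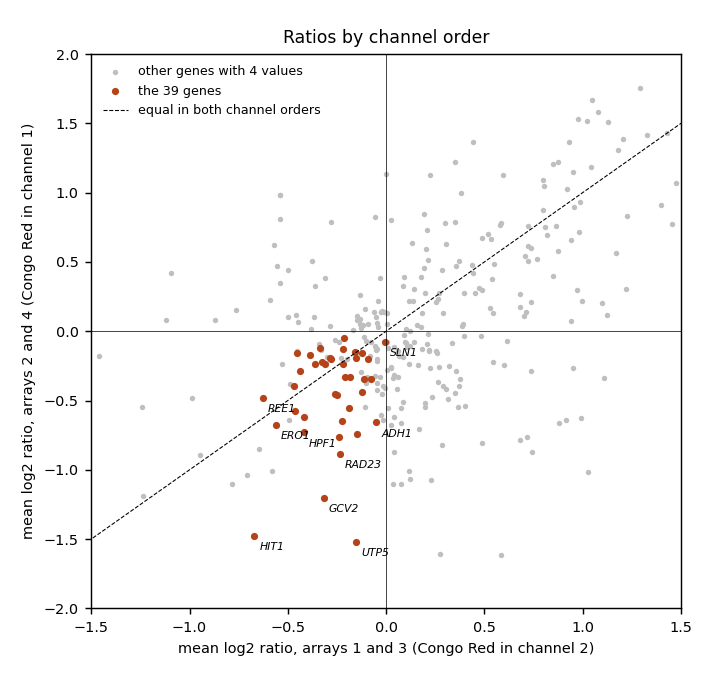
Mean log2 ratio on arrays 1 and 3 (horizontal axis) against that on arrays 2 and 4 (vertical axis), 1 point a gene, with the 39 genes in red and the other genes with 4 values in grey; 21 other genes lie outside the axes. UTP5, GCV2 and ADH1 fall well under the dashed line of equal values, and REE1 lies just above it.

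The 39 genes were also set against functional lists written from general knowledge. These lists do not match the roles above. UTP5, RPC34, STM1, YEF3 and TMA10 are not on the ribosome list, nor GCV1 and GCV2 on the amino acid list. The ribosome, RNA processing and translation list had 6 genes with 4 values, of which 3 were below 0 on all arrays (HIT1, ECM1 and ECM16), with a median of the means of -0.31, and limma called 1 lower and 1 higher of 8 tested. In the amino acid, nitrogen and nucleotide list 4 of 7 were below 0 throughout (ARG1, MET6, URA7 and DCG1), with 2 called lower and 1 higher of 8 tested. Small lists of Ras, cAMP and TOR genes and of secretory genes had 2 of 4 each, with 0 and 1 called lower. The cell integrity signalling list had 4 of 21 (SWI6, TOR1, WSC4 and MID2) with 2 called lower and 4 higher of 22 tested, high osmolarity signalling 2 of 17 with 0 lower and 1 higher of 19, and glycolysis and fermentation 2 of 11 with 0 called. Of 21 ECM-named genes, found through sensitivity to Calcofluor white, 3 were below 0 throughout and 4 above, and limma called 0 lower and 2 higher of 25 tested. Ion transport and transcription with chromatin had 2 of 6 each, the first with 0 called and the second with 0 lower and 2 higher. Over all 328 genes the share was 14.9%, and the lists of 4 to 7 genes are too short to read. Of the wall-building lists, chitin had 0 of 10 with 0 called lower and 5 higher, β-1,3-glucan 1 of 14 with 0 lower and 6 higher, and GPI-anchored proteins 5 of 48 with 3 lower and 15 higher of 50 tested.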

How the data were processed

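The authors deposited a log2 ratio between the RNAs for each of 896 spots of each array. The scale was read from the values, since the dyes, the handling of background, the normalization, any removal of spots and the numerator are not given in the sources read here. Between 53 and 73 spots an array had no value. Through GEO's platform annotation, which is old, 724 spots name 1 gene, and all 353 genes matched the R64 gene table, used for names and gene order only. Spots of a gene were averaged on each array (2 spots for each of the 39 genes). Spots near background could not be set apart, as brightness was not analysed here.

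Each gene was fitted against 0 with limma 3.58.1 (lmFit, eBayes) in R 4.3.3 over 348 genes with at least 3 values, with Benjamini-Hochberg adjustment and a threshold of 0.05, and again with a term for channel order. The fit was tested on simulated data. The members, roles, partners and lists were chosen with earlier results of these data known. Named genes were all 39, with values on every array for the 12 lowest means, for members of lists holding at least 2 of them and for 3 genes on each side of the limit. Values of further members and of the partner genes were added after they were seen. Alternatives were centring, scaling, median of spots, other limits and missing values, discordant spots (SD over 0.5), turning, channel order and each array left out. The labels do not say that arrays 1 to 4 hold RNA of different cultures, so p-values may measure technical spread only. Sequences are not shown, as no sequence table was used here. Figures were drawn with matplotlib 3.10.9.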

Additional observations from a re-analysis of the deposited data

Results flagged for a closer look

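Of 77 genes looked at (the 39, their partners, the genes just outside the limit and ACT1), 2 had 1 array far away from the rest, and chance marks about 1 in 20 such groups. MET6 had a log2 ratio of -0.39 on array 1, with the other arrays between -0.055 and -0.040. SWI4, which is not among the 39, had 0.61 on array 3, with the others between 0.48 and 0.49.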

How the results depend on the processing

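With another array treatment, the number of genes meeting the rule was 72 after centring on the median spot and 73 after centring on the median named gene, with 36 and 37 of the 39 among them. Either centring could remove a gene only through array 2, the array with a median below 0. The number of genes meeting the rule was 13 with a limit of -0.1, and 17 with arrays 2 and 4 turned. None of these 17 could be among the 39, since turning reverses the sign on arrays 2 and 4. Leaving out each array gave 43 to 70 genes, the highest without array 3. On arrays 1 and 3 alone 69 genes met it and on arrays 2 and 4 alone 113 (chosen after seeing the data). Every spot below 0 left 28 genes, and leaving out the genes with discordant spots, HIT1 and HPF1, left 37. The limma count of lower genes went from 13 of 348 tested to 23 after centring and 24 after centring with scaling (14 of the 39 in both). It was 34 of 348 with a term for channel order (16 of the 39). The same ratios chose the 39, so nothing is read from how many of them were called. With arrays 2 and 4 turned the count was 0 (6 at an unadjusted p under 0.05), and with an array left out 3 to 6. The count of higher genes was 59, 0 with arrays turned (27 unadjusted) and 33 to 46 with an array left out. Channel order calls went from 23 to 48 after centring, 39 after centring with scaling and 11 to 30 with an array left out. The causes were not tested. Leaving out an array also lowers the number of arrays and unbalances the channel orders. Leaving out 1 array moved the mean of 12 of the 39 genes by over 1.5 times. Without array 1 the means were -0.11 for ARG1, -0.047 for MET6, -0.14 for PDC1 and -0.20 for RCR1. Without array 2 they were -0.27 for COX11, -0.17 for GCV1, -0.15 for HOC1, -0.36 for HPF1, -0.016 for SLN1, -0.17 for STE7 and -0.091 for VPS1, and without array 4 -0.51 for UTP5. No paired analysis was possible because all arrays form 1 group.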

Other observations

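Among spots with no gene name here, 96 had a value on all 4 arrays and 6 of them (6.25%) were below 0 on every array. The lowest was spot 571, with a mean log2 ratio of -2.11 ± 0.96 (SD, n = 4), further below 0 than any of the 39 genes.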
